A study of Mus musculus with 15 samples.

Results

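The genes described here are 35 listed members of the type I interferon response, the receptor chains and transcription factors of the pathway and the antiviral genes it induces. They were taken by name: all 35 were among the 54532 genes of the forebrain count table, and 34 were among the 32285 genes of the microglia matrices, which do not hold Mx1. They were measured after a tamoxifen-induced deletion of Atg7, a gene that autophagosome formation requires, in cells that express Cx3cr1. Deleted animals (called cKO) carried ATG7FF, the floxed Atg7 alleles, with Cx3cr1CreER, and controls carried ATG7FF without Cre. All mice, of the C57BL/6 strain, were given tamoxifen (1.5 mg) at 2 months and were 8 months old at sampling. The forebrain groups, 6 control libraries (ATG7FF;5xFAD) and 7 cKO libraries (ATG7FF;Cx3cr1CreER;5xFAD), all carried the 5xFAD amyloid transgenes as well. The sorted microglia came from mice without 5xFAD, gated as CD11b-high and CD45-low, in 1 library per genotype that pooled 3 forebrains for the control and 4 for the cKO. Cx3cr1CreER is a knock-in at the Cx3cr1 gene and controls had no Cre, so the Cre allele and the loss of Atg7 cannot be told apart in either comparison. Nothing in the labels says that the forebrain libraries are different mice, and the p-values below therefore reflect only how much these libraries vary.

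Type I interferons (interferon-alpha and interferon-beta) bind a receptor made of IFNAR1 and IFNAR2, whose kinases JAK1 and TYK2 phosphorylate STAT2. STAT2 joins IRF9 in a complex that binds the interferon-stimulated response element and switches on genes that block viral entry, RNA translation and budding. Among the induced genes are RNA and DNA sensors and the transcription factor IRF7, which raise interferon production further, and the protease USP18, which dampens signalling at the receptor. In the brain a small population of interferon-responsive microglia is known from ageing and from mouse models of amyloid deposition.

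The promoters of some members carry the response element itself, and a few are shown because this is the sequence through which the pathway is known to act. The element was searched as GAAA, 2 bases of any kind and GAAA, on both strands, in the 250 bases before each gene start of the RefSeq promoter table (GRCm38.p6), in which 26 of the 35 members had an entry. It was present in 8 of these 26 members (30.8%), and in 936 of all 27025 genes of the table (3.46%). The 8 members were Ifit1, Ifit3, Isg15, Oas1a, Bst2, Stat2, Rsad2 and Trim30a. A gamma-activated site, searched as TTCNNNGAA, was present in 4 of 26 members (15.4%) against 8.13% of all genes. The lines below give the 160 bases before the start of 4 induced members and of the receptor gene Ifnar2, 5′ to 3′ on the gene's strand, with matches to the response element in capitals.
Ifit3 (chr19:34583369-34583528, plus strand): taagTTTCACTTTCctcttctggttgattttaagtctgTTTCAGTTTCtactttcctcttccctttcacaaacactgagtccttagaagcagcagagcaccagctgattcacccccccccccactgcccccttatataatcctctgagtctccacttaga
Isg15 (chr4:156200819-156200978, minus strand): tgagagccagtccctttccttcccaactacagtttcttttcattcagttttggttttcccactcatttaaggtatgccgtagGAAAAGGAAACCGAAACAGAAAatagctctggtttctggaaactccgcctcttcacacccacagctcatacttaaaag
Rsad2 (chr12:26456453-26456612, minus strand): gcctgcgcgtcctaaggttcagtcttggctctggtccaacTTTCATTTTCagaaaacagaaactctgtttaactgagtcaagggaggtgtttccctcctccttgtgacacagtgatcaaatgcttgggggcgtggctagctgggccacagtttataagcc
Bst2 (chr8:71537473-71537632, minus strand): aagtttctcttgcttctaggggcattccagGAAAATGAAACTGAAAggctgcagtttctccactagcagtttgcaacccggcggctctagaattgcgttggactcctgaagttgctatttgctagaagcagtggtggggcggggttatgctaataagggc
Ifnar2 (chr16:91372623-91372782, plus strand): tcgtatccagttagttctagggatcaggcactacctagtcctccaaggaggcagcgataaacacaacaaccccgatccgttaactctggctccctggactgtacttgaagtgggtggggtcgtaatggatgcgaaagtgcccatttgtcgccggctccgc
Isg15 held 3 overlapping matches, beginning 78, 72 and 66 bases before the start, and Ifit3 held 2 separate ones, beginning 156 and 122 bases before it. The Bst2 matches overlapped and began 130 and 124 bases before the start, and the single Rsad2 match began 120 bases before it. The Ifnar2 stretch held none. All distances are to the RefSeq start. For Ifit3, Oas1a, Bst2 and Stat2 the stretch just after that start was not found whole near the beginning of a GENCODE transcript. Their distances therefore hold for the RefSeq start only. A match is a description of the letters and does not show that the site is bound.

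The forebrain libraries held 16658707 to 22355512 counts each. Atg7 stood at 24.3 CPM (counts scaled to the library total) in control and 24.4 CPM in cKO forebrain, where most cells do not express Cx3cr1. Microglia markers were lower in cKO forebrain: 14 of 18 fell by edgeR's quasi-likelihood test with Benjamini-Hochberg adjustment, against 0.277% of all genes tested. Their summed level was 1613 to 1818 CPM in the control and 1205 to 1502 CPM in the cKO libraries, with no overlap. The markers include Cx3cr1, the gene that carries the Cre knock-in. In bulk tissue fewer microglia and less RNA per microglia cannot be told apart. In the microglia matrices, 6243 control and 8874 cKO barcodes were kept, of which 6218 and 7412 were microglia-like (99.6% and 83.5%), with median depths of 1392 and 4856 UMIs (unique molecular identifiers). A further cluster of low-depth barcodes, with long non-coding RNAs among its leading genes, held 15% of the kept cKO barcodes and 0.0801% of the control ones and was left out. The 2 libraries shared 22 barcodes, 10 of them in microglia-like cells.

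In 5xFAD forebrain no interferon gene passed the test in either direction. Of the 33 members tested, 0 fell and 0 rose in cKO libraries at an adjusted p below 0.05 by edgeR's quasi-likelihood test, against a background of 0.277% of 16956 genes that fell and 0.0531% that rose. At an unadjusted p below 0.05 the same test counted 1 member, Isg15, against 7.71% of all genes, and DESeq2's Wald test also called 0 members. The members were divided, with 14 lower and 19 higher, and their median log2 change of 0.03 lay beside 0.00 for all genes tested. No member had all cKO libraries below or above all control libraries, an arrangement found for 0.313% of genes downward and 0.13% upward. The precision was enough to bound most members. For 25 of 33 the 95% interval of the log2 change lay wholly within a 1.5-fold change in either direction. For 16 of them it lay within 1.25-fold. The interval reached past 1.5-fold for the others, which were Isg15, Irf7, Oas1a, Oas2, Usp18, Mx1, Ifi44 and Ifi204. A change of that size was not bounded for these induced genes. Oasl1, which encodes an inhibitor of IRF7 translation, and Zbp1, which encodes a sensor of left-handed nucleic acids, did not pass the filter on low counts. Oasl1 ranged from 0 to 0.587 CPM in control and from 0.117 to 0.769 CPM in cKO libraries, and Zbp1 from 0 to 0.802 and from 0.293 to 0.950 CPM.

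**Figure D1:**
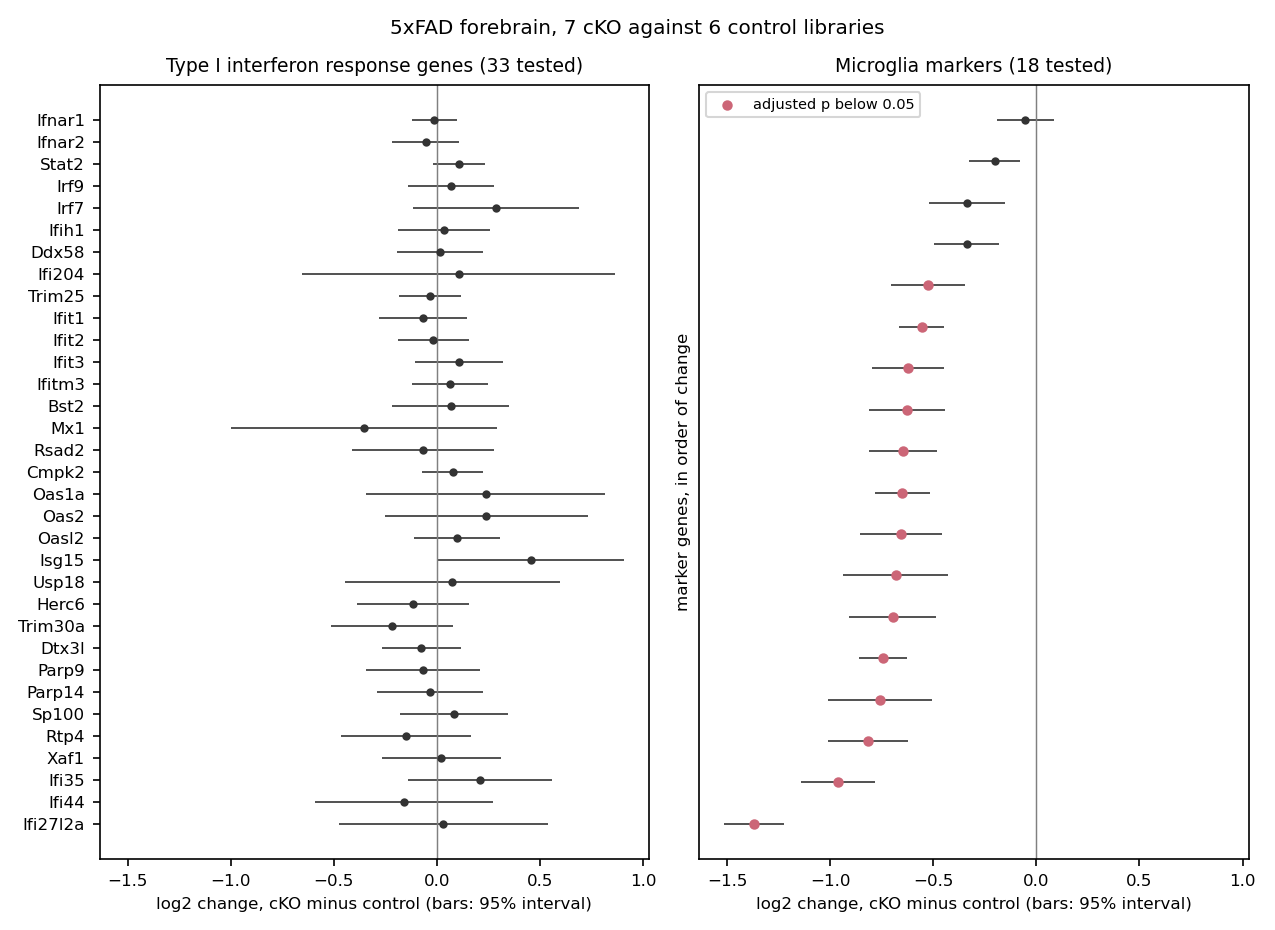
Log2 change (cKO minus control, x axis) of the 33 tested interferon genes, in order of role, and of 18 microglia markers, unnamed and in order of change, with bars for the 95% interval and red points for an adjusted p below 0.05. The interferon genes lie on both sides of 0 and none is red, while 14 microglia markers are red and all 18 lie below 0.

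The summed level of the 35 members was closely similar in the 2 genotypes while that of the microglia markers was not. The members added up to 278 ± 2.51 CPM in control (SD, n = 6; range 274.6 to 280.7) and 282 ± 5.36 CPM in cKO libraries (SD, n = 7; range 276.4 to 291.5), with overlapping groups. The sum is dominated by a few members, since Ifnar1, Cmpk2, Stat2 and Ifit2 had the highest counts. Expressed per length of exon, the order in control forebrain began with Ifitm3 (18.9 RPKM, CPM divided by exonic length in kilobases), a membrane protein that blocks viral entry, followed by Ifnar1 (8.19 RPKM) and Cmpk2 (7.06 RPKM), a nucleotide kinase. The lowest tested members per length were Ifi204 (0.168 RPKM), a DNA sensor, and Mx1 (0.189 RPKM).

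The receptor genes and the transcription factors overlapped between the groups, and none passed the test. Ifnar1 (chromosome 16, 91485238 to 91507441, GRCm38) ran from 45.2 to 51.4 CPM with a median of 48.9 in control libraries, and from 45.7 to 52.9 CPM with a median of 47.7 in cKO libraries. Its partner Ifnar2 (chromosome 16, 91372783 to 91405589) ran from 12.3 to 14.8 CPM with a median of 13.8 in control, and from 11.8 to 14.9 CPM with a median of 12.9 in cKO. For both receptor genes the 2 groups covered nearly the same range, with log2 changes of -0.01 (SE 0.05) for Ifnar1 and -0.05 (SE 0.08) for Ifnar2. Stat2 (chromosome 10, 128270559 to 128292849), whose protein carries the signal to the nucleus, ran from 25.5 to 28.4 CPM in control (median 27.2) and from 25.5 to 31.4 CPM in cKO (median 29.6). Its highest 4 values were cKO libraries but the lowest cKO library stood at the level of the lowest control, and the log2 change was 0.11 (SE 0.06, adjusted p = 0.691 by edgeR's quasi-likelihood test). Irf9 (chromosome 14, 55603571 to 55610030), the DNA-binding partner of STAT2, ran from 11.5 to 13.2 CPM in control (median 12.1) and from 10.3 to 16.9 CPM in cKO (median 12.5). The cKO libraries of Irf9 spread to both sides of the controls, with a log2 change of 0.07 (SE 0.10). Irf7 (chromosome 7, 141262706 to 141266481), the factor that amplifies interferon production, ran from 1.55 to 3.57 CPM in control (median 2.63) and from 2.38 to 4.33 CPM in cKO (median 3.06). Only cKO replicates 5 and 6 exceeded the highest control, and the log2 change of 0.29 (SE 0.19) had an adjusted p of 0.732 by the same edgeR test.

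**Figure D2:**
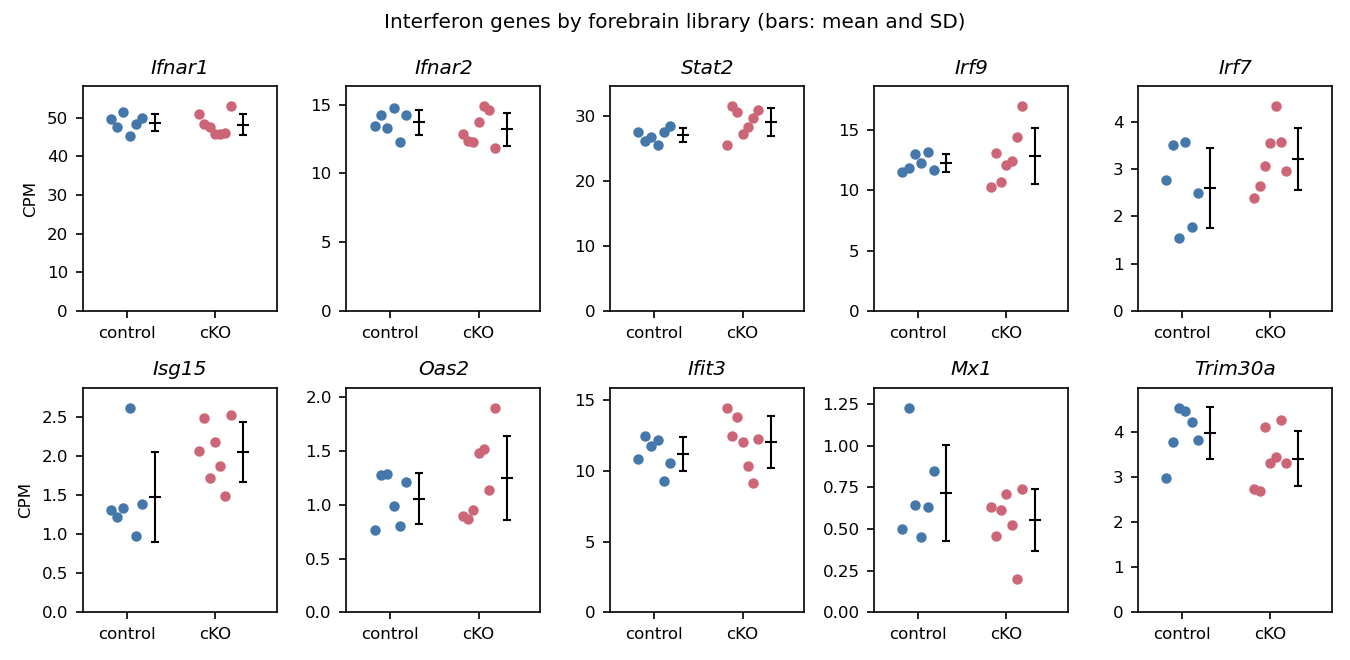
CPM (y axis) of 10 interferon genes in each forebrain library, 6 control in blue and 7 cKO in red, with bars for the mean and SD. The groups overlap in every panel, and Isg15 shows 1 control library at 2.62 CPM, above the other 5 controls and above every cKO library.

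Among the induced genes, the highest log2 change belonged to Isg15 (chromosome 4, 156199424 to 156200818), the ubiquitin-like protein whose response elements are printed above. Isg15 ran from 0.973 to 2.62 CPM in control libraries (median 1.33) and from 1.49 to 2.53 CPM in cKO libraries (median 2.07). Control replicate 4 held the highest value of all 13 libraries, and the other 5 controls (0.973 to 1.40 CPM) lay below every cKO library. Its log2 change was 0.46 (SE 0.22, 95% interval 0.01 to 0.91) with an unadjusted p of 0.0467 and an adjusted p of 0.645 by edgeR's quasi-likelihood test. Without control replicate 4 the change was 0.71 (SE 0.20, adjusted p = 0.285 by the same test), still short of the threshold.

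Oas2 and Oas1a, synthetases of the 2-5A messenger that activates RNase L, had the highest changes after Isg15 and Irf7. Oas2 (chromosome 5, 120730333 to 120749853) ran from 0.770 to 1.28 CPM in control (median 1.10) and from 0.865 to 1.90 CPM in cKO (median 1.14), a log2 change of 0.24 (SE 0.24). Oas1a (chromosome 5, 120896256 to 120907521) ran from 0.334 to 1.40 CPM in control (median 1.07) and from 0.674 to 1.48 CPM in cKO (median 1.18), also with a log2 change of 0.24 (SE 0.28). In both genes the cKO medians lay within the control range. Oasl2 of the same family changed by 0.10 (SE 0.10), and none of the 3 tested members passed (lowest adjusted p = 0.827, edgeR's quasi-likelihood test).

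The lowest log2 changes belonged to Mx1, Trim30a and Ifi44. Mx1 (chromosome 16, 97447035 to 97462907), a dynamin-like antiviral GTPase that is known to be defective in most laboratory strains including C57BL/6, ran from 0.452 to 1.23 CPM in control (median 0.636) and from 0.198 to 0.739 CPM in cKO (median 0.613). Control replicate 2 and cKO replicate 6 were the highest and the lowest library, the remaining ones overlapped, and the log2 change was -0.35 (SE 0.31, adjusted p = 0.799, edgeR's quasi-likelihood test). Trim30a (chromosome 7, 104409025 to 104465193), a tripartite motif protein of immune cells, ran from 2.99 to 4.54 CPM in control (median 4.03) and from 2.70 to 4.26 CPM in cKO (median 3.33). Its log2 change was -0.22 (SE 0.14, adjusted p = 0.722 by the edgeR test), and 5 of 7 cKO libraries lay below 5 of 6 controls. Ifi44 (chromosome 3, 151730922 to 151749960) ran from 1.03 to 1.60 CPM in control (median 1.30) and from 0.878 to 1.64 CPM in cKO (median 1.08), so that the cKO range enclosed the control range. Its log2 change was -0.16 (SE 0.21).

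The remaining members moved little in either direction. The cytosolic RNA sensors Ifih1 (MDA5) and Ddx58 (RIG-I) changed by 0.03 (SE 0.11) and 0.01 (SE 0.10) on the log2 scale, and Trim25, the ubiquitin ligase that activates RIG-I, by -0.04 (SE 0.07). The genes of the tetratricopeptide proteins, Ifit1, Ifit2 and Ifit3, changed by -0.07 (SE 0.10), -0.02 (SE 0.08) and 0.11 (SE 0.10). Ifitm3 changed by 0.06 (SE 0.09) and Bst2 (tetherin), which holds budding virus at the cell surface, by 0.07 (SE 0.14). Rsad2 (viperin) and its chromosome 12 neighbour Cmpk2 changed by -0.07 (SE 0.17) and 0.08 (SE 0.07). Usp18 changed by 0.07 (SE 0.25), Herc6, the main ligase of ISG15 in mice, by -0.12 (SE 0.13) and Dtx3l by -0.08 (SE 0.09). The ADP-ribosyl transferases Parp9 and Parp14 changed by -0.07 (SE 0.13) and -0.03 (SE 0.12), the nuclear body gene Sp100 by 0.08 (SE 0.13), and Rtp4, Xaf1, Ifi35 and Ifi27l2a by -0.15, 0.02, 0.21 and 0.03. The interval reached farthest from 0 for Mx1 (down to -1.0) and Isg15 (up to 0.91), both low in counts. Reads of Ifit3, Oas1a, Ifitm3, Ifi204, Trim30a and Ifi27l2a are uncertain, because each has closely similar copies in the genome, and Dtx3l and Parp9 overlap on opposite strands while the strand setting of the counting is not given.

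Genes around the members gave 1 call. The interferon genes themselves were hardly detected in forebrain: none of 14 listed ligands passed the filter, and 9 had 0 counts in every library. Among nucleic acid sensing genes outside the list, 1 of 22 tested fell and 0 rose. The shares of all 16956 genes tested were 0.277% and 0.0531%, and they are the background for the other lists below as well. Groups without overlap, with cKO lower, were found for 2 of the 22 and for 0.313% of all genes tested. The one that fell was Irf8, a transcription factor of the myeloid lineage, with 7.35 to 9.41 CPM in control (median 7.94) and 5.14 to 6.33 CPM in cKO (median 6.21), without overlap. Its log2 change was -0.47 (SE 0.10, adjusted p = 0.0304 by edgeR's quasi-likelihood test), beside the median of -0.65 of the 18 microglia markers. In sorted microglia Irf8 stood at 559 CPM (control) and 600 CPM (cKO). Next by p was Tlr7, the endosomal receptor of single-stranded RNA, at 5.16 ± 1.17 CPM in control and 3.45 ± 0.602 CPM in cKO (SD, n = 6 and 7, adjusted p = 0.174, edgeR), and Unc93b1, its chaperone, at 17.3 ± 1.35 and 14.8 ± 0.669 CPM (adjusted p = 0.364, edgeR). Of 13 further JAK-STAT genes 0 passed, and the smallest p values were those of Pias1 (log2 change -0.11) and Jak1 (-0.08). Of 46 other interferon-stimulated genes 0 passed, led by Tnfsf10 (0.41) and Trafd1 (0.16), and of 17 genes that lean to interferon-gamma 0 passed, led by the GTPase genes Tgtp2 (0.72) and Gbp4 (0.43). The medians of these 4 lists lay between -0.04 and 0.06 on the log2 scale.

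In sorted microglia the members also stood at nearly the same level in the 2 genotypes. Their UMIs in microglia-like cells added up to 10438 in control and 44885 in cKO cells, or 1150 and 1181 CPM of all UMIs. Each genotype is a single library here, so no difference has a replicate check, and the 95% intervals cover counting error only. Of 22 members with at least 10 CPM in 1 library, 0 differed by 1.5-fold or more in either direction, where 2.43% of 8652 genes at that level were higher in cKO by that much and 1.44% were lower. Higher values were found for 12 of the 22, against 61.9% of all genes, and the median log2 ratio of 0.07 lay beside 0.06 for all genes. Over the 32 members with UMIs in both libraries and a finite ratio, the interval of the ratio included 1 for 25, lay above 1 for 6 and below 1 for 1. This count was not made over all genes, so it only describes the members.

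The highest ratios at this level were those of Ifi27l2a, Ifi204 and Ifit3. Ifi27l2a, of the ISG12 family of small interferon-induced proteins, stood at 20.7 CPM in control and 30.3 CPM in cKO cells, 1.46-fold higher (1.25 to 1.72). Ifi204 stood at 7.82 and 10.8 CPM, 1.38-fold higher (1.07 to 1.80), and Ifit3 at 10.7 and 14.0 CPM, 1.31-fold higher (1.05 to 1.64). Ifi204 reached 10 CPM in the cKO library alone, so the limit itself favoured a higher cKO value for it. In cells with at least 1000 detected genes the ratios of Ifi27l2a and Ifit3 passed 1.5-fold, at 1.62 and 1.76. The lowest ratios were those of Ifi35 (52.8 and 47.7 CPM, 0.903, interval 0.816 to 1.00), Xaf1 (32.3 and 29.4 CPM, 0.911, 0.800 to 1.04) and Trim30a (94.6 and 86.6 CPM, 0.915, 0.848 to 0.987). Only the Trim30a interval lay below 1.

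Both receptor genes stood among the members with the highest levels in microglia. Bst2 and Trim30a lay between them in both libraries, and Parp14 did so in the cKO library alone. Ifnar2 had the highest level of all members, 309 CPM in control and 300 CPM in cKO cells (ratio 0.972, interval 0.932 to 1.01), and Ifnar1 stood at 68.6 and 67.7 CPM (0.987, 0.904 to 1.08). Stat2 stood at 13.7 and 17 CPM (1.24-fold, 1.02 to 1.52), Irf9 at 44.7 and 48.2 CPM (1.08-fold, 0.967 to 1.20) and Irf7 at 4.08 and 3.74 CPM (0.917, 0.635 to 1.36). Parp14 was 1.23-fold higher in cKO (60.3 and 74.1 CPM, 1.12 to 1.35) and Bst2 1.07-fold (150 and 160 CPM, 1.01 to 1.13). The 12 members below 10 CPM in both libraries included Ifit1 (2.86 and 3.18 CPM), Rsad2 (2.31 and 2.16 CPM), Usp18 (4.52 and 3.84 CPM) and Oas2 (0.551 and 0.368 CPM). Oasl1 was at 0 UMIs in control cells and at 18 in cKO cells, and Ifi44 at 0 and 2. The zero in the control allows up to 0.406 CPM for each of them (exact Poisson interval). Oasl1 stood at 0.474 CPM in cKO cells, and the counting interval of its ratio began at 1.05. For Ifi44 the values were 0.0526 CPM and 0.0449. Without a finite ratio, both genes are outside the interval counts given above.

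**Figure D3:**
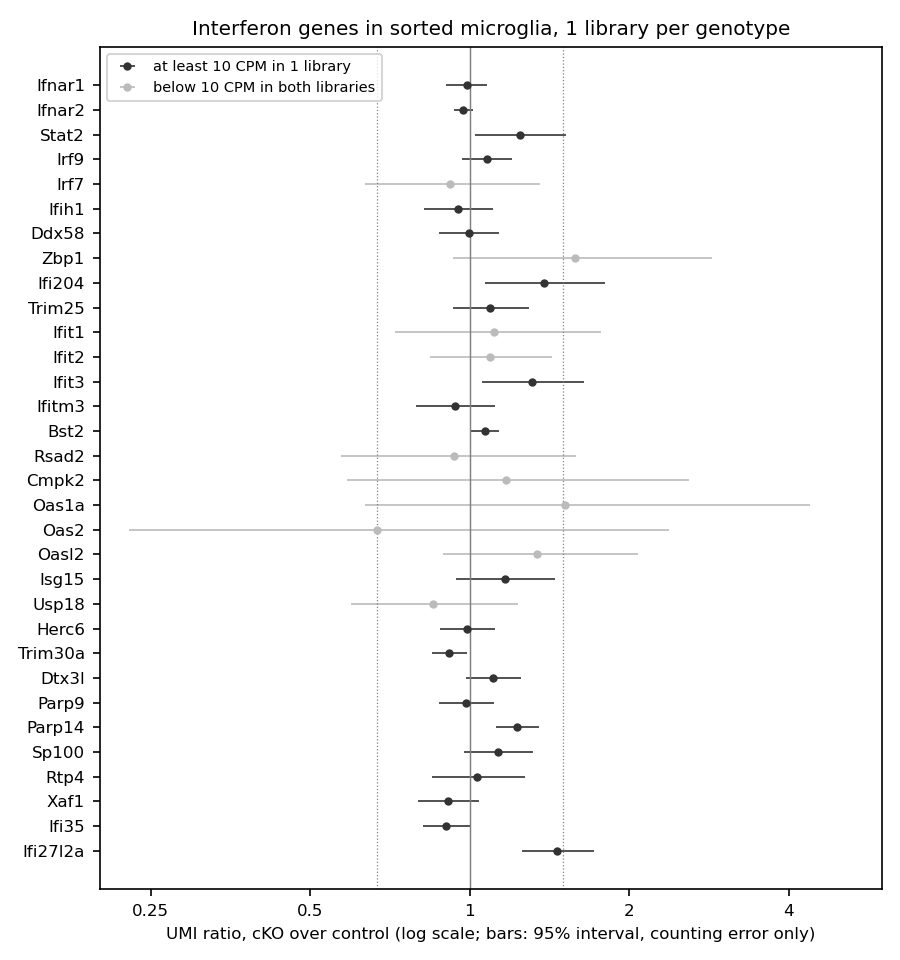
Ratio of UMI levels in microglia-like cells, cKO over control (x axis, log scale), for the 32 interferon genes with at least 5 UMIs in the control library, with bars for the 95% counting interval and dotted lines at 1.5-fold in either direction. No gene with at least 10 CPM in 1 library (black) lies past a dotted line.

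The libraries fell mostly into different clusters, so the same members were also compared within clusters. Cluster 0, led by Fos, held 93.0% of kept control and 2.51% of kept cKO cells, cluster 1, led by histone genes, 3.99% and 47.7%, and cluster 2, led by Lyz2 and Apoe, 1.55% and 31.7%. The summed level of the members was 1062 CPM in control and 994 CPM in cKO cells of cluster 0, 1276 and 1081 CPM in cluster 1, and 1214 and 1089 CPM in cluster 2. The cKO value was the lower one in all 3, with member medians of -0.43 in cluster 0 and -0.28 in cluster 1 on the log2 scale beside -0.08 and -0.02 for all genes. In cluster 0, 6 of 18 members at 10 CPM were 1.5-fold or more lower in cKO and 0 higher, where 14.2% of all genes at that level were lower and 6.07% higher. They included Herc6 (33.3 and 14.3 CPM) and Stat2 (12.4 and 4.76 CPM). In cluster 1, 3 of 21 were lower and 1, Stat2, was higher (8.51 and 16.8 CPM), where 7.75% of all genes were lower and 9.45% higher. Cluster 2 held only 97 control cells, and there 8 of 21 members were lower and 1 higher with a median of -0.37, where 22.5% of all genes were lower and 21.3% higher. These values rest on few molecules in the smaller arm: Herc6 had 9 UMIs and Stat2 had 3 in the 223 cKO cells of cluster 0. Some members, such as Stat2 in both clusters, reached 10 CPM only in the library where they were higher, so the counts are a description and support nothing.

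A small group of cells with high levels of the members was present in both libraries. Cluster 6, whose leading genes were Cxcl10, Ifit3, Ifitm3, Ifit2, Ifi204 and Isg15, held 54 control cells (0.865% of kept cells) and 90 cKO cells (1.01%). The members' summed level there was 8437 CPM in control and 8386 CPM in cKO cells. Since its own genes define the cluster, these levels are a description. Within it Ifit3 stood at 764 and 697 CPM, Ifitm3 at 752 and 757 CPM, Isg15 at 470 and 404 CPM, and Ifi27l2a at 341 and 555 CPM.

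The share of such cells was also counted gene by gene, with 8 sentinel genes that are strongly induced and otherwise rare (Ifit1, Ifit2, Ifit3, Isg15, Rsad2, Usp18, Oasl1 and Cmpk2). When each cell was thinned to 1000 UMIs, 27 of 5632 control cells had UMIs of 2 or more sentinel genes, 0.479% (exact binomial interval 0.316 to 0.697%). In the cKO library 34 of 7349 cells did, 0.463% (0.321 to 0.646%). Thinning left out 586 control and 63 cKO cells below that depth. The intervals overlapped at this depth, but they cover only the cells of a single library per genotype. They cannot show whether the genotypes differ, and the shares are a description. Without thinning the shares were 0.676% (42 cells) and 1.61% (119 cells), where the cKO cells had a median of 4856 UMIs and the control cells 1392. Among kept barcodes that were not microglia-like, the thinned share was 2 of 982 in the cKO library (0.204%, 0.0247 to 0.734%, median depth 1145 UMIs). The corresponding control share was 0 of 23, which allows up to 14.8%. The cut between 1 and 2 sentinel genes runs through a range, since 178 control and 656 cKO cells had exactly 1 sentinel gene and 25 and 63 had exactly 2.

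Most members that were not used to choose these cells were also higher in them. Cells with 2 or more sentinel genes (unthinned) made up 0.730% of all control UMIs and 1.92% of all cKO UMIs, and held 50.0% and 59.2% of the sentinel UMIs that chose them. Of the 26 other members in the matrices, 22 were higher in these cells than in the remaining control cells, and 25 in the cKO library. The median ratios were 7.77 and 5.10. The counting interval of the ratio lay above 1 for 18 members in control and 24 in cKO. Ifi44, at 0 UMIs in control, could not be higher there. The same count over all genes was not made, so these counts only describe the members. The median depth of the chosen cells was 1508 UMIs against 1391 in the remaining control cells, and 5733 against 4844 in cKO. They lay mostly in cluster 6, with 36 of 42 control and 66 of 119 cKO cells there, and the cKO remainder lay in clusters 1 (32 cells), 2 (19 cells) and 3 (2 cells).

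The members ranged from genes concentrated in these few cells to genes at the same level throughout. Irf7 was 104-fold higher in the sentinel-positive cells of the control library (50.5 to 208) and 72.0-fold in cKO (51.0 to 102), and Zbp1 was 106-fold (33.5 to 319) and 130-fold higher (84.0 to 205). Oasl2, Ifi204 and Ifitm3 were 87.9, 78.5 and 50.4-fold higher in control and 72.5, 41.7 and 52.1-fold higher in cKO. Intermediate members included Rtp4 (28.3 and 15.9-fold), Ifi27l2a (13.5 and 14.7-fold), Stat2 (11.9 and 5.54-fold), Parp14 (11 and 4.49-fold) and Bst2 (4.76 and 4.18-fold). At the other end stood Ifnar1 (0.878, 0.239 to 2.26, and 1.22, 0.930 to 1.58) and Ifnar2 (0.681, 0.372 to 1.15, and 0.904, 0.781 to 1.04), whose intervals included 1 in both libraries. The microglia genes Csf1r (0.967, 0.833 to 1.12, and 0.918, 0.876 to 0.963) and P2ry12 (0.722, 0.618 to 0.839, and 0.833, 0.798 to 0.869) were at or below the level of the remaining cells. Cxcl10, a chemokine gene outside the list, was singled out after its values were seen. It was 8.49-fold higher in these cells of the control (1.69 to 26.4) and 106-fold in those of the cKO library (89.8 to 126). The control value rests on 3 UMIs in 2.38% of the 42 cells, and 10.1% of the 119 cKO cells held any. These intervals take UMIs as independent and leave out the spread between cells, so the 2 values are not compared.

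**Figure D4:**
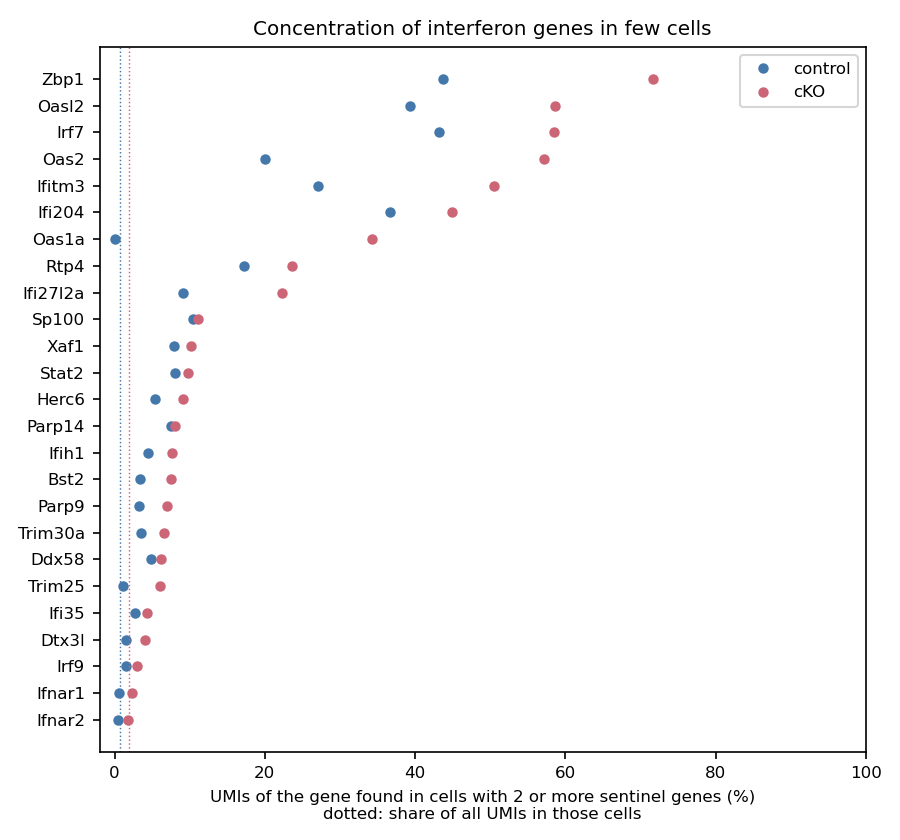
Share of each gene's UMIs found in cells with 2 or more sentinel genes (x axis, percent), for 25 members that are not sentinel genes, in control (blue) and cKO (red) microglia-like cells, with dotted lines for the share of all UMIs in those cells. Zbp1, Irf7 and Oasl2 lie far to the right in both libraries, and Ifnar1 and Ifnar2 lie on the dotted lines.

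Interferon ligand RNA was not found in the control microglia: all 14 listed ligands had 0 UMIs there, and 13 had 0 in the cKO library. Among interferon-gamma-leaning genes outside the members, the ratios past 1.5-fold were those of Cxcl10 (5.62 and 17.1 CPM, 3.05-fold, 2.29 to 4.14), the guanylate-binding protein gene Gbp2 (4.63 and 10.6 CPM, 2.29-fold, 1.66 to 3.22) and Cd274, which encodes PD-L1 (7.38 and 12.0 CPM, 1.62-fold, 1.25 to 2.13). All 3 reached 10 CPM in the cKO library alone, so the limit favoured them and their number is not read against the 2.43% of all genes. Few cells carried the Cxcl10 value: 439 of its 651 cKO UMIs lay in the 119 sentinel-positive cells, of which 10.1% had any, and in the remaining cells it stood at 5.33 CPM in control and 5.69 CPM in cKO. The lowest ratios of that list were those of Gbp3 (0.676, 0.557 to 0.825) and Gbp7 (0.810, 0.752 to 0.872). Among 34 other interferon-stimulated genes at 10 CPM, Ccl5 had the highest ratio, at 27 UMIs in control and 523 in cKO cells (4.63-fold, 3.14 to 7.09, at 10 CPM in cKO alone), followed by Trafd1 (1.27-fold). The lowest were the chemokine gene Ccl12 (219 and 143 CPM, ratio 0.653, 0.620 to 0.688) and Nmi (0.810). Of 13 JAK-STAT genes, Tyk2 (1.29-fold) and Ifngr1 (1.21-fold) had the highest ratios, and the feedback inhibitors Socs3 (121 and 77.4 CPM, 0.639, 0.596 to 0.686) and Socs1 (0.676, 0.539 to 0.852, at 10 CPM in control alone) the lowest. Of 18 sensing genes none differed by 1.5-fold, with Irf5 (1.25-fold) and Samhd1 (1.19-fold) highest and Tmem173, which encodes STING (0.870), and Aim2 (0.902) lowest. Border macrophage markers, whose list contains Mrc1 (4.74 and 13 CPM) and Stab1 (176 and 218 CPM), summed to 181 and 233 CPM. Of the same list, Cd163 and Lyve1 were at 0 in both libraries. Ms4a7 stood at 0.110 CPM in control and 0.921 CPM in cKO (1 and 35 UMIs), and Cbr2 at 0.220 and 0.395 CPM (2 and 15 UMIs). Pf4 stood at 0.661 and 0.526 CPM, and F13a1 had 1 UMI in control and 0 in cKO. The part of such cells in the differences above was not tested.

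Forebrain and sorted microglia ranked the members differently. Cmpk2, the third highest member per length in control forebrain, ranked 30 of the members in control microglia with 10 UMIs (1.10 CPM). Ifitm3, the highest in forebrain, ranked 17 in microglia. Conversely Trim30a, Parp14 and Ifi35 ranked 22, 26 and 16 in forebrain and 3, 5 and 6 in microglia. The forebrain ranks are per length of exon and those of the 3' UMI counts are per transcript end, and the forebrain mice carried 5xFAD while the sorted microglia did not, so the ranks are set side by side without a test.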

How the data were processed

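Members and gene lists were chosen with earlier results of these data known. Forebrain values are whole-number read counts per gene that the authors deposited, and the submitters' processing notes name HISAT2 2.0.5, featureCounts 1.5.0-p3 and the mm10 build. Microglia values are UMI counts that the authors deposited from 10x 3' v3 libraries, for which the file headers name Cell Ranger 6.1.0. How reads of similar genes were assigned is not given in the sources used here.

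Forebrain counts were filtered with filterByExpr, scaled by TMM and tested on genotype with the two-sided robust quasi-likelihood F-test of edgeR 4.0.16 (R 4.3.3) and Benjamini-Hochberg adjustment over 16956 genes, at a threshold of 0.05. DESeq2 1.42.0 was an alternative. Where a symbol had several identifiers, the one with more counts carried the name. CPM use TMM-scaled totals, RPKM use GENCODE exon lengths, and log2 changes are cKO minus control. The common biological coefficient of variation was 10.0%, and libraries of 1 group differed by more than sampling noise (lowest chi-square per degree of freedom 2.66). On data simulated for 7 against 6 libraries over 16821 genes, the changing genes were above 1 CPM. The test called 100% of genes at 2-fold, 100% at 0.5-fold, 92% at 1.5-fold and 96% at 0.667-fold, and 8 of 202 calls were false. Every simulated gene had the same biological coefficient of variation. These rates therefore do not cover members that vary more between libraries, or members below 1 CPM.

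Cells with at least 500 genes and at most 10% mitochondrial UMIs were clustered with scanpy 1.11.5 (2000 variable genes, 30 components, 15 neighbours, Leiden resolution 0.5). A cluster was microglia-like when at least 3 microglia markers were detected and its 10 leading genes held at most 1 marker of any other class. A cluster without a leading microglia marker also needed a median depth of at least 0.333 of its cells' own library, which left out 1 cluster, at 0.248. Clusters led by oligodendrocyte precursor or choroid plexus genes (20 control and 129 cKO cells) were left out after their leading genes were seen. Doublets were not called and remain. The UMI counts of microglia-like cells were added up in each library, with exact 95% intervals for sums, ratios and shares that cover counting error only. In simulated libraries over 8652 genes the true ratio lay in the interval for 93.0% of genes at 1.5-fold, 95.0% at 0.667-fold and 95.4% of unchanged genes. The simulated UMIs were independent, which the interval itself assumes. It therefore checks the calculation only, and does not cover genes whose UMIs sit in few cells. The text gives full values for the 3 highest and 3 lowest members in each data type and for the receptor and transcription factor genes, and names genes of other lists by the call, the 2 smallest p values or the 2 highest and lowest ratios. The genes set beside the sentinel-positive cells outside the members were chosen after clusters were seen. Alternatives were other scaling, no filter, DESeq2, a replicate block, each library left out, other cell filters and levels, other thinning and single clusters.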

Additional observations from a re-analysis of the deposited data

Results flagged for a closer look

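Of 66 groups of library values checked (33 members in 2 genotypes), 5 held a single library far from the rest of its group, 7.58%, where chance gives about 5%. Control replicate 4 stood highest for Isg15 at 2.62 CPM, with the other controls at 0.973 to 1.40 CPM. The same library stood highest for Ifi27l2a at 1.67 CPM, the other controls lying between 0.891 and 1.15 CPM. Control replicate 2 was highest for Ifi35 at 2.62 CPM (others 1.68 to 1.99 CPM) and for Ifih1 at 10.6 CPM (others 7.27 to 7.85 CPM). Replicate 5 of the cKO group was lowest for Ifih1 at 6.14 CPM (others 7.97 to 9.08 CPM). No member passed the threshold of edgeR's test without any of these libraries: leaving out control replicate 2 gave log2 changes of 0.32 for Ifi35 and 0.13 for Ifih1, leaving out control replicate 4 gave 0.19 for Ifi27l2a, and leaving out cKO replicate 5 gave 0.09 for Ifih1. Over all 33 members, control replicate 4 was the highest control for 7 and the lowest for 5.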

How the results depend on the processing

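In forebrain, 0 members fell and 0 rose under all 18 alternatives, and the median log2 change of the members stayed between 0.01 and 0.05 under the 5 that changed the scaling, filter, test or block. With 1 library left out it lay between 0.002 and 0.042. Same-numbered libraries did not consistently deviate together (correlations from -0.32 to 0.17, of which 3 of 6 exceeded 0.1), and the main test did not pair them. These correlations do not settle whether the numbers pair libraries. With the number as a replicate block and cKO replicate 7 out, 19 genes fell and 1 rose, against 47 and 9 without the block, no member was called, the member median was 0.008, and the sign turned for Ifi204 (-0.174), Ifit2 (0.018), Irf9 (-0.015) and Usp18 (-0.071). Ifnar1 turned to 0.003 with unscaled library totals. With 1 library left out, 31 of 429 member values turned sign, none of them past the threshold, and the ranges of these members were -0.004 to 0.129 for Bst2, -0.039 to 0.059 for Ddx58, -0.124 to 0.296 for Ifi204, -0.104 to 0.187 for Ifi27l2a, -0.052 to 0.041 for Ifit2, -0.034 to 0.006 for Ifnar1, -0.008 to 0.117 for Irf9, -0.096 to 0.022 for Parp14, -0.143 to 0.007 for Parp9, -0.139 to 0.033 for Rsad2, -0.062 to 0.188 for Usp18 and -0.057 to 0.1 for Xaf1.

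In microglia the median log2 ratio moved to -0.011 at a minimum of 20 CPM, 0.036 over all deposited barcodes, -0.010 in cells with at least 1000 genes (2 members higher) and 0.014 with scaling by the median ratio. Within clusters it was -0.427 in cluster 0 (6 members lower, beside 14.2% of all genes) and -0.282 in cluster 1 (1 higher and 3 lower, beside 9.45% and 7.75%). Cluster 2, with 97 control cells, gave -0.37. The shares of sentinel-positive cells were 0.992% (control, 5 of 504) and 0.560% (cKO, 40 of 7145) when thinned to 2000 UMIs, 0.213% and 0.231% at 3 genes, and 0.676% and 1.606% unthinned. The cause was not tested. Members with few counts in forebrain have wide intervals, among them Isg15, Irf7, Oas2, Usp18 and Ifi44, whose mean levels lay above 1 CPM.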
